A study of Mus musculus with 6 samples.

Results

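Retinoic acid handling and signaling were examined in pRb-deficient and pRb-expressing mouse osteoblasts through 9 genes that bind, make, clear or sense retinoic acid. The genes were Crabp1 and Crabp2 (binding proteins), Rdh10, Aldh1a1 and Aldh1a3 (synthesis), Cyp26b1 (clearance), and Rara, Rarb and Rarg (receptors). Members were all probe sets annotated with 1 of these symbols alone, which gave 13 of the 45037 probe sets of the array that are not controls, for 9 of 18193 genes with a single symbol. The signals of these same arrays entered the choice of the 9 genes, so their differences between the groups are given as a description. Where the criterion run across all probe sets is applied to them, it serves to count them beside all the others and is no test of the members.

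The cells were MC3T3 osteoblasts, bone-forming cells taken from the calvariae (skull vault) of mice at embryonic day 18.5 and immortalized by serial passage under the 3T3 protocol. pRb-deficient cells (3 cultures) came from animals lacking pRb and pRb-expressing cells (3 cultures) from their control littermates, each labeled as biological replicates, with 1 Affymetrix array per culture. The mice carried flox19-RB1, a conditional allele of the gene for pRb, on a C57BL/6 background, and 2.3- and 3.6-Col1a1-Cre, in which a collagen promoter active in osteoblasts drives the recombinase. Animals of the F2 from crosses among RBf19/WT;Col1a1-Cre mice were used, and all 6 cultures shared medium and immortalization. Which of the Cre transgenes each line carried, whether the pRb-expressing line carried Cre, and whether cultures of a group came from separate animals are not given in the sources used here. The tests therefore measure the spread between these cultures, which may be technical, and line of origin and pRb status cannot be told apart.

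Retinoic acid is made from vitamin A in a pair of steps. Retinol dehydrogenases such as Rdh10 give retinal, and retinaldehyde dehydrogenases of the Aldh1a family give retinoic acid. Cellular binding proteins carry it, Cyp26 enzymes oxidize it for removal, and receptors Rara, Rarb and Rarg, paired with retinoid X receptors, switch target genes at direct repeats of a short core motif. In skull and limb the balance of supply and clearance is known to affect bone formation, and Cyp26b1 is an enzyme that skull bones need for normal development.

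The start-site windows of these genes show where such repeats lie. RefSeq windows (GRCm38.p6) of 250 bases before and 50 after each annotated start were at hand for 6 of the 9 genes, 11 windows in all. Crabp2, Rdh10 and Aldh1a3 are named only. The core motif was searched as AGGTCA, as AGTTCA, as GGGTCA and as GGTTCA on both strands, and a direct repeat was a pair of them on the same strand spaced by 1, 2 or 5 bases, so that each repeat also counts as core motifs. A repeat spaced by 5 was found in 1 of 11 windows, that of Rarb, and in 0.0974% of all 32851 windows of this length. It is shown because this element of the mouse Rarb promoter is a well-known response element for retinoic acid. The stretch below is chr14:16575477-16575576 on the minus strand, the 100 bases before the start and inside the longer annotated Rarb gene, written 5′ to 3′ with the repeated core motifs in capitals. The repeat itself, at bases -53 to -37, is given on the second line (chr14:16575513-16575529).
Rarb: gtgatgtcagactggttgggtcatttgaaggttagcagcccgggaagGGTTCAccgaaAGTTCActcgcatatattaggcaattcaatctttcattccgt
Rarb repeat: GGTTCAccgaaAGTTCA

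The windows of Crabp1 and Cyp26b1 are shown because, with signals floored at 32, these genes had the largest rise and the largest fitted fall among the members. The first line is chr9:54764628-54764747 on the plus strand, the 120 bases before the Crabp1 start, with the GC box GGGCGG in capitals on either strand (CCGCCC is its reverse complement). The second line is chr6:84593921-84593970 on the minus strand, 50 bases of the Cyp26b1 window from base -160 on, with the TATA box letters TATAAA in capitals. Distances there are counted from the start at chr6:84593810, whereas the annotated Cyp26b1 gene begins further upstream, at chr6:84593908.
Crabp1: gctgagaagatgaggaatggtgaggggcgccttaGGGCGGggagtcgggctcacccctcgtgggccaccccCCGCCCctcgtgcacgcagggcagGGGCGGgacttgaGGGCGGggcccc
Cyp26b1: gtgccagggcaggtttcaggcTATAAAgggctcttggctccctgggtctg

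The Crabp1 window held 5 GC boxes, 4 of them in the stretch shown, and no core motif. GC boxes were found in 6 of the 11 windows, which belong to 4 genes, and in 35.7% of all windows. The Rara windows of the starts at chr11:98937696 and chr11:98937718 overlap and hold the same GC boxes, which were thus counted in each. TATAAA was found in 1 of 11, that of Cyp26b1, and in 13.6% of all. At least 1 core motif was present in 5 of the 11 windows (Rara, Rarb, Rarg and Aldh1a1) and in 43.7% of all. Repeats spaced by 1 or 2 were found in no member window, against 0.222% and 0.268% of all windows. The E2F letters TTTCCCGC, TTTCGCGC, TTTGCCGC and TTTGGCGC, searched because pRb acts through E2F factors, were in none of the 11 and in 2.26% of all. A match describes letters only, and its absence says nothing beyond this window.

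**Figure D1:**
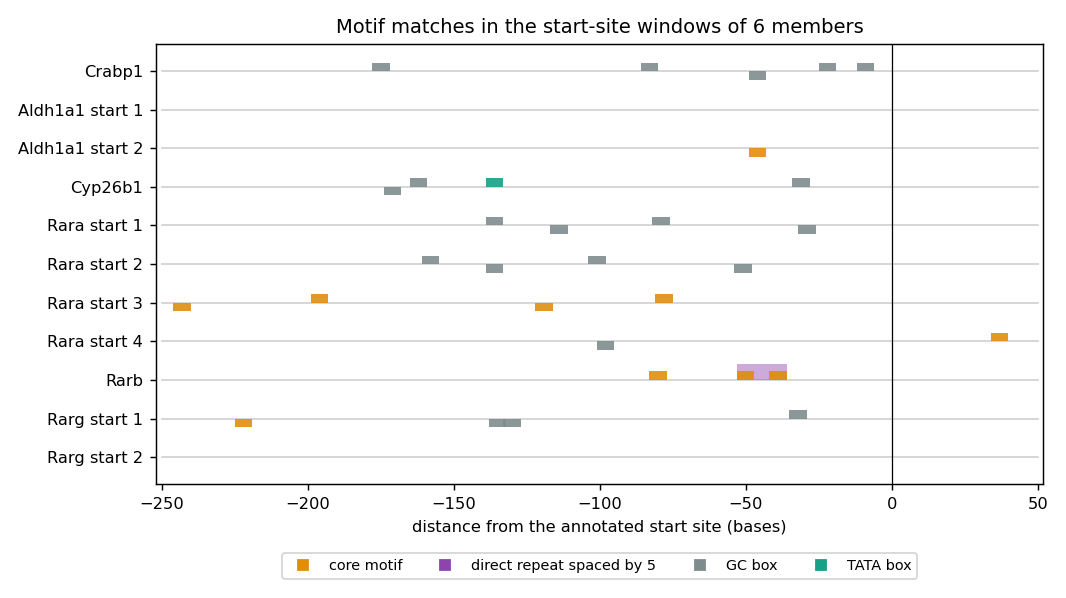
Motif matches in the 11 start-site windows of 6 members, by distance from the annotated start in bases. Blocks above a line lie on the strand of the gene and blocks below it on the opposite strand. The repeat spaced by 5 appears only in the Rarb window, between -53 and -37, and the Crabp1 window holds 5 GC boxes.

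The values below are MAS5 signals, the authors' linear array intensities, scaled by them to the same trimmed mean on each array. They set a probe set against itself across arrays, not against another probe set. Rb1, the gene for pRb, had signals of 143.1, 127.1 and 123.5 in pRb-deficient cultures, against 1123.7, 1118.6 and 1105.9 in pRb-expressing cultures. The position of its probes relative to the deleted sequence is not given in the sources used here, and the signal therefore does not test the deletion. Correlations of log2 signals were 0.974 to 0.984 within groups and 0.912 to 0.917 between them. The groups also differed in marker genes, counted at a limma adjusted p under 0.05. Over all 16308 genes tested, 18.5% were higher and 23.4% lower in pRb-deficient cultures. Osteoblast markers were lower for 7 of 8 measured, and Phex was higher. Their summed signal was 35644 to 47919 in pRb-deficient and 62198 to 72138 in pRb-expressing cultures. That sum was mostly Col1a1, Col1a2 and Sparc. Beyond the median log2 fold change of probe sets on their chromosomes, these were at -0.29, -0.18 and 0.15. Sp7, Alpl, Ibsp and Dmp1 were at -4.60, -1.26, -6.46 and -4.21 beyond theirs, and Phex at 1.69. The bone matrix genes Ibsp and Dmp1 lay at or below 32 on every pRb-deficient array. Mesothelial and meningeal markers were higher for 5 of 7 (sums of 4463 to 5447 in pRb-deficient and 720 to 783 in pRb-expressing cultures), with Msln, Bnc1 and Zic1 high while Upk3b and Wt1 were at or below 32 on every pRb-deficient array. Stress genes were higher for 4 of 7, and Fos was lower. Their sums were 14575 to 23312 in pRb-deficient and 6837 to 7671 in pRb-expressing cultures. Other marker lists were mixed or little changed. Of 5 chondrocyte markers tested, 1 was higher and 2 lower, and of 5 smooth muscle markers 2 were higher and 1 lower. Of 6 hematopoietic markers 1 was higher and 1 lower, and of 6 epithelial markers 1 was lower. No adipocyte or endothelial marker passed. Of 4 sex-linked genes, Xist was higher and 3 Y-linked genes were lower in pRb-deficient cultures. Xist high without Y-linked signal is the pattern of female cells and the reverse that of male cells, so that sex of the line and pRb status also cannot be told apart. The part of these differences in the results for retinoid genes was not tested.

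Binding proteins were higher in pRb-deficient osteoblasts. Crabp1, which binds retinoic acid in the cytoplasm, had signals of 2649.9, 3434.0 and 2838.5 in pRb-deficient cultures, against 12.9, 8.2 and 1.8 in pRb-expressing cultures. All pRb-expressing arrays lay below 32, the floor under which signals were set equal, and the groups were far apart. The signal was at least 92.4-fold higher in pRb-deficient cultures, counted against that floor (means of 2974 ± 409 and 7.63 ± 5.57, SD, n = 3 each). With bulk RNA, more cells that express the gene and more RNA per cell cannot be told apart here or for any gene below.

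Crabp2, which hands retinoic acid to its receptors, had signals of 3023.2, 2464.3 and 1501.6 in pRb-deficient cultures, against 941.0, 891.9 and 876.5 in pRb-expressing cultures. Every pRb-deficient culture was above every pRb-expressing culture, but they were spread widely among themselves. The log2 fold change was 1.31 (standard error 0.24), or 2.48-fold on geometric means, all folds being pRb-deficient over pRb-expressing.

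Among enzymes of synthesis, Rdh10 was higher and the Aldh1a members were lower in pRb-deficient cultures. Rdh10 carries out the retinol step that embryos depend on. Its brighter probe set had signals of 732.9, 889.1 and 824.1 in pRb-deficient and 340.5, 385.9 and 384.2 in pRb-expressing cultures. Its other probe set had 309.0, 318.5 and 340.7 in pRb-deficient and 204.1, 202.4 and 176.1 in pRb-expressing cultures. The groups were separate on both probe sets, with log2 fold changes of 1.14 (standard error 0.11) and 0.73 (standard error 0.13). Probe sets of genes on the same chromosome moved the other way: the median log2 fold change on chromosome 1 was -0.50 (probe sets averaging 200 or more in signal).

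Aldh1a3, an enzyme of the retinal step, fell on its brightest probe set. The signals there were 82.9, 40.2 and 15.6 in pRb-deficient cultures, against 281.4, 278.3 and 255.5 in pRb-expressing cultures, with 1 pRb-deficient array below the floor. The pRb-expressing cultures lay close together and the pRb-deficient ones were all far below them, a log2 fold change of -2.52 (standard error 0.36). A second probe set read 61.1, 31.9 and 47.4 in pRb-deficient and 72.8, 113.2 and 72.7 in pRb-expressing cultures, separate again but with a log2 fold change of only -0.90 and a standard error of 0.30. A further probe set was dim throughout, at 21.9, 11.3 and 20.2 in pRb-deficient and 32.9, 36.8 and 24.7 in pRb-expressing cultures, too near the floor to be read either way. The probe sets of this gene thus differed in the size of the fall.

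Aldh1a1, another enzyme of this step, had signals of 2.6, 2.1 and 2.9 in pRb-deficient cultures, against 114.3, 46.1 and 102.0 in pRb-expressing cultures. All pRb-deficient arrays were below the floor and the pRb-expressing arrays were dim and uneven, so the fold was at least 2.54 lower in pRb-deficient cultures. With a floor of 100 the log2 fold change was -0.07, and with no floor above 1 it was -5.02.

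Cyp26b1, which clears retinoic acid, was lower in pRb-deficient cultures. Its signals were 47.9, 217.1 and 98.8 in pRb-deficient cultures, against 724.1, 661.2 and 529.2 in pRb-expressing cultures. No pRb-deficient culture came near the pRb-expressing range, although the pRb-deficient cultures differed widely from each other, replicate 2 being the highest. The log2 fold change was -2.65 (standard error 0.50), or 6.27-fold lower. This was the largest fitted fall among members with the floor of 32, under which that of Aldh1a1 is only a bound. With no floor above 1, Aldh1a1 (-5.02), the brightest Aldh1a3 probe set (-2.86) and Rara (-2.70) fell further. With chromosome medians removed, that Aldh1a3 probe set did (-2.20). Without pRb-deficient replicate 1, it (-2.92) and Rara (-2.56) fell further than Cyp26b1 (-2.11). Probe sets of genes on the chromosome of Cyp26b1, 6, had a median of -0.59, and the difference of Cyp26b1 beyond that median was -2.06.

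The receptors moved apart. Rara had signals of 101.4, 9.3 and 50.2 in pRb-deficient cultures, against 254.4, 318.6 and 161.3 in pRb-expressing cultures, with 1 pRb-deficient array below the floor. The ranges did not meet, and the log2 fold change was -2.11 (standard error 0.46), or -1.60 beyond the median of chromosome 11.

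Rarb, whose promoter holds the repeat shown above, had signals of 81.7, 76.3 and 111.1 in pRb-deficient cultures and 67.7, 69.4 and 80.3 in pRb-expressing cultures. It was the only member whose groups overlapped, with a log2 fold change of 0.29 and a standard error of 0.21, and its signal was low on all arrays.

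Rarg read 2451.2, 2363.6 and 2457.1 in pRb-deficient cultures on its brighter probe set, against 1609.1, 1848.6 and 1941.0 in pRb-expressing cultures. The other probe set read 997.9, 1176.3 and 1127.5 in pRb-deficient and 497.9, 677.8 and 538.4 in pRb-expressing cultures. Both were higher in every pRb-deficient culture, with log2 fold changes of 0.43 (standard error 0.08) and 0.95 (standard error 0.13). The median of chromosome 15 was 0.42, so that the brighter probe set differed by 0.02 beyond it and the other by 0.54.

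**Figure D2:**
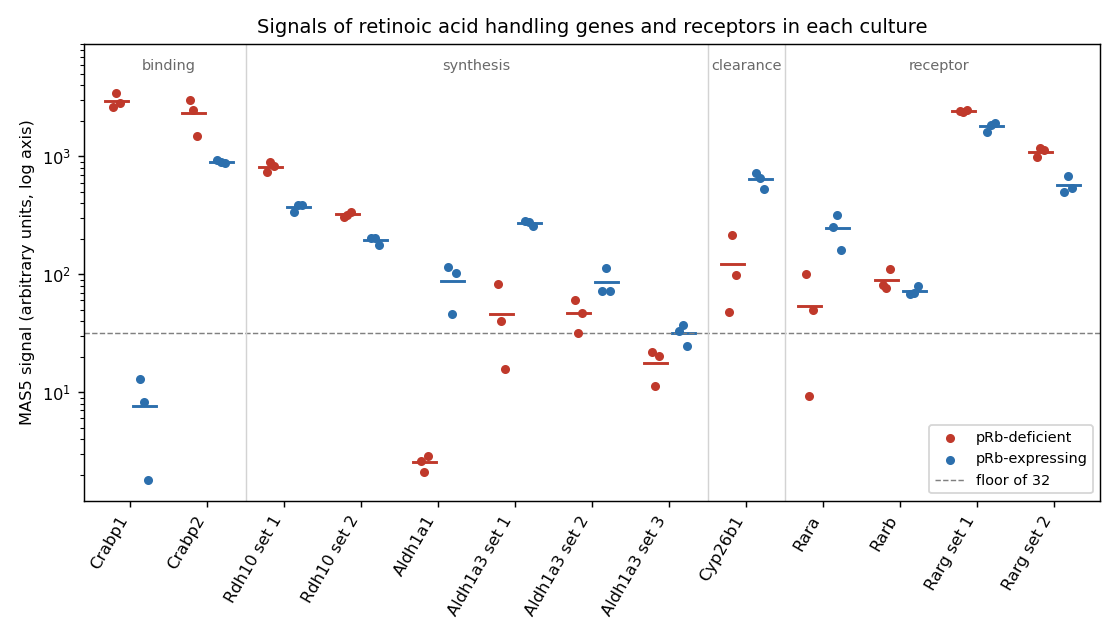
MAS5 signal (log axis) of the 13 member probe sets in each culture, with pRb-deficient points left of pRb-expressing points. Bars are group means, and a dashed line marks the floor (32). Crabp1 lies at 2649.9 or more in all pRb-deficient cultures and below the floor in all pRb-expressing cultures, and the groups overlap for Rarb.

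Of the 13 probe sets, 6 were higher and 4 lower in pRb-deficient cultures at a limma adjusted p under 0.05, and 3 did not pass (Rarb and 2 probe sets of Aldh1a3). Among all 38427 probe sets tested, 16.2% were higher and 18.8% lower by the same criterion. The groups did not overlap for 12 of the 13, and for 48.0% of all. The median absolute log2 fold change was 1.14 in the members and 0.36 over all probe sets tested. Since the genes were picked from this comparison, nothing is read from these shares.

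**Figure D3:**
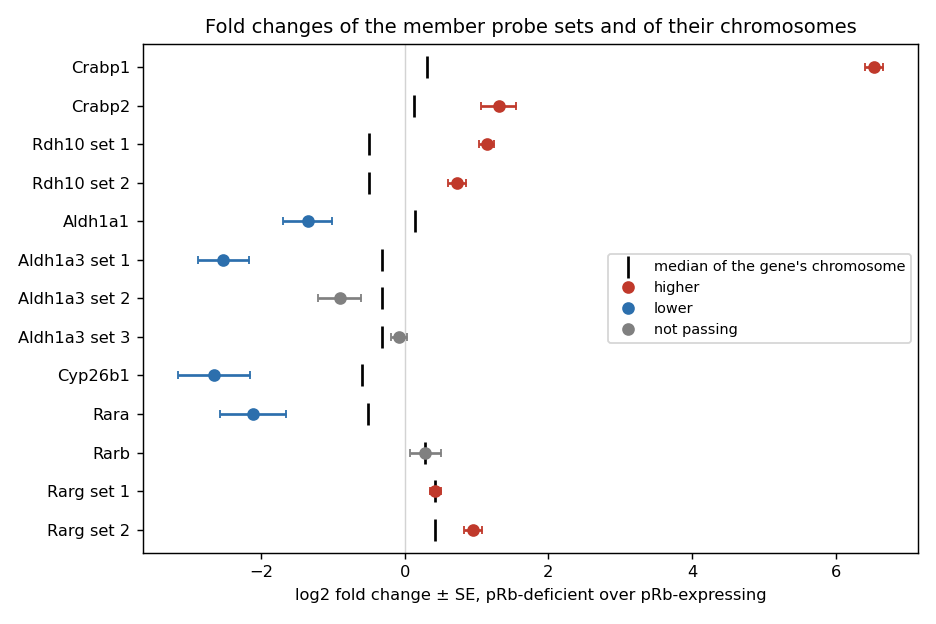
Log2 fold change, pRb-deficient over pRb-expressing, of the 13 member probe sets with its standard error (points and bars). Black ticks mark the median over probe sets of genes on the same chromosome. Crabp1 is at 6.53 and Cyp26b1 at -2.65, while the brighter Rarg probe set lies on the tick of its chromosome.

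Cultures of the pRb-deficient group were not alike in several members. Replicate 1 had the highest signal of its group for Crabp2, for the brightest Aldh1a3 probe set and for Rara, and the lowest for Cyp26b1. Some stress genes were uneven over the same arrays, though not in 1 order. Gadd45a had signals of 5264.8, 2914.2 and 1182.2 in pRb-deficient cultures, against 310.4, 336.0 and 339.3 in pRb-expressing cultures. Ddit3 had 7892.2, 2513.5 and 1210.5 in pRb-deficient cultures, against 1138.1, 1183.9 and 1179.4 in pRb-expressing cultures. The spread was thus within the pRb-deficient group, with replicate 1 highest for both. Jun (4481.1, 6460.0 and 7104.5) and Hspa1b (2888.8, 3440.9 and 3424.7) were instead lowest in that replicate of the pRb-deficient group. The part of this spread in the member values was not tested. Without pRb-deficient replicate 1 the log2 fold changes were 1.09 for Crabp2, -2.92 for the brightest Aldh1a3 probe set, -2.56 for Rara and -2.11 for Cyp26b1.

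The rest of the pathway was read from a list of 43 other genes of retinoid uptake, metabolism and receptor action, chosen with earlier results of these data known. Of these, 38 were measured, and 34 had a signal above 32 on at least 1 array and were tested with the brightest probe set each. In pRb-deficient cultures 4 passed as higher and 11 as lower, and 19 did not pass, against 18.5% higher and 23.4% lower of all 16308 genes tested. The median log2 fold change of the list was -0.17, and that of all genes -0.09. The falls were most frequent among coregulators and orphan receptors, where 6 of 9 were lower and 1 was higher. Beyond the medians of their chromosomes, Ncoa1, Ncoa2, Nrip1 and Nr2f1 were at -0.75, -1.10, -0.30 and -1.09. Ncoa6 and Nr2c2, also called lower, were at -0.04 and 0.12 beyond theirs. No other tested probe set of Ncoa1 or Nr2c2 passed as lower. Of the other probe sets tested, 2 of 3 passed as lower for Ncoa2 and 1 of 5 for Nrip1. Ncoa6 and Nr2f1 had only 1 probe set each.

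In retinol uptake and oxidation the clearest fall was in Adh1, an alcohol dehydrogenase that also oxidizes retinol. Its signals were 56.3, 45.0 and 67.6 in pRb-deficient cultures, against 1052.5, 1158.0 and 1162.3 in pRb-expressing cultures. The groups were far apart and each was tight, with a log2 fold change of -4.34 and a standard error of 0.18 (limma adjusted p = 1.06e-05). Adh7, an enzyme of the same cluster on chromosome 3, averaged 739 ± 361 in pRb-deficient and 2041 ± 132 in pRb-expressing cultures (SD, n = 3 each), a log2 fold change of -1.58 (limma adjusted p = 0.00741). Adh5, a neighbor of both that acts mainly on glutathione-bound formaldehyde, averaged 3137 ± 304 in pRb-deficient and 3165 ± 57.4 in pRb-expressing cultures (log2 fold change -0.02, standard error 0.08). Adh4, the remaining listed gene of that cluster, was at or below 32 on all arrays.

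Rbp4, the carrier of retinol in blood, had signals of 219.6, 184.9 and 185.3 in pRb-deficient cultures, against 75.0, 68.7 and 50.9 in pRb-expressing cultures. It rose by a log2 fold change of 1.61 (limma adjusted p = 0.00128), with no overlap. Rdh14, a retinol dehydrogenase, rose by 0.55 (limma adjusted p = 0.0336), a call that was lost on leaving out any array except pRb-deficient replicate 3. Rdh13, a related enzyme of mitochondria, had a log2 fold change of -0.46 (limma adjusted p = 0.0381), a call lost with the replicate block and in 4 of the 6 fits that left out an array. Stra6, the retinol uptake receptor, and Dhrs3, which reduces retinal back to retinol, had log2 fold changes of 0.42 and 0.06 with standard errors of 0.44 and 0.37, and neither passed.

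Of the other listed enzymes of the retinal step and of clearance, none that was tested passed, and Aldh1a2 was not tested. Aldh1a2, the main retinaldehyde dehydrogenase of many embryonic tissues, was at or below 32 on all 6 arrays, with a highest signal of 6.7 in pRb-deficient and 8.9 in pRb-expressing cultures. Aldh8a1, which oxidizes a cis form of retinal, had signals of 95.1, 161.1 and 178.2 in pRb-deficient and 132.1, 145.4 and 146.7 in pRb-expressing cultures, with overlap. Cyp26a1, the other listed clearing enzyme, had signals of 51.0, 30.5 and 39.1 in pRb-deficient and 20.1, 80.8 and 8.0 in pRb-expressing cultures. The ranges of Cyp26a1 overlapped and the gene was dim.

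Partners of the receptors also differed. Rxra, a retinoid X receptor that pairs with them, had signals of 454.8, 465.7 and 489.8 in pRb-deficient cultures, against 920.3, 989.5 and 993.9 in pRb-expressing cultures. The cultures of each group agreed closely, and the log2 fold change was -1.04 (standard error 0.08, limma adjusted p = 0.000107). It was -0.73 beyond the median of chromosome 2, and -0.72 for the mean of its probe sets. Rxrb had a log2 fold change of -0.20 (standard error 0.26) and did not pass, and Rxrg was at or below 32 on all arrays. Fabp5, which can carry retinoic acid to the receptor Ppard, averaged 1291 ± 115 in pRb-deficient and 3400 ± 108 in pRb-expressing cultures (log2 fold change -1.40, limma adjusted p = 3.87e-05). Ppard itself had signals of 704.7, 887.6 and 1040.2 in pRb-deficient cultures, against 310.5, 333.2 and 283.8 in pRb-expressing cultures. It was higher in every pRb-deficient culture, by a log2 fold change of 1.49 (limma adjusted p = 0.000428), while its carrier was lower.

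Among coregulators, the coactivator Ncoa2 averaged 495 ± 58.4 in pRb-deficient and 1485 ± 83 in pRb-expressing cultures (log2 fold change -1.59, limma adjusted p = 6.32e-05), or -1.02 for the mean of its probe sets. Nrip1, a corepressor that binds liganded receptors, fell by 0.70 on the log2 scale (limma adjusted p = 0.00149), of which -0.30 remained beyond the median of chromosome 16. The orphan receptors of the COUP family, which can occupy the same motifs, went apart. Nr2f2 averaged 943 ± 113 in pRb-deficient and 482 ± 28.1 in pRb-expressing cultures (log2 fold change 0.96, limma adjusted p = 0.000686, or 0.49 for the mean of its probe sets), and Nr2f1 averaged 291 ± 18.9 in pRb-deficient and 502 ± 106 in pRb-expressing cultures (log2 fold change -0.77, limma adjusted p = 0.0104).

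**Figure D4:**
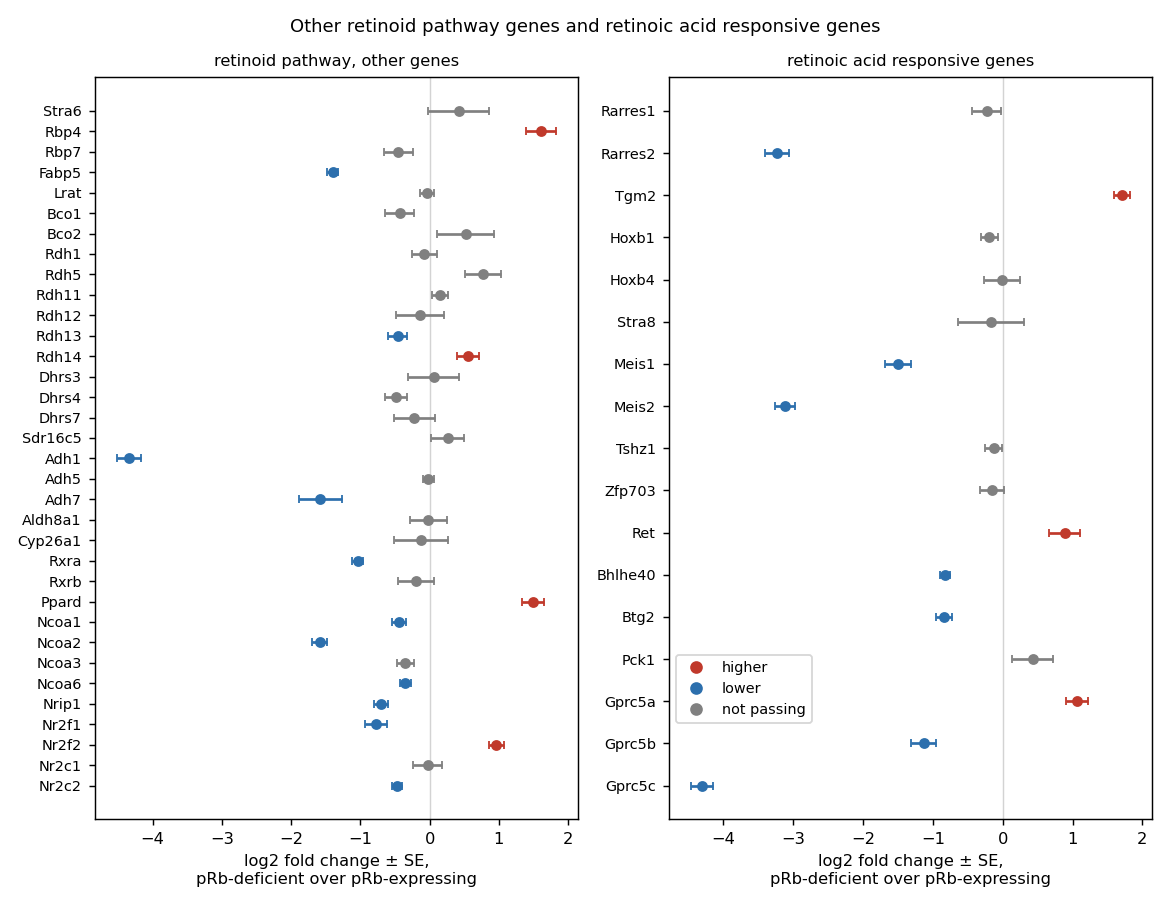
Log2 fold change, pRb-deficient over pRb-expressing, with its standard error for the 34 other pathway genes tested (left) and the 17 responsive genes tested (right). Colors mark genes higher, lower or not passing at a limma adjusted p under 0.05. Adh1 (-4.34) and Gprc5c (-4.31, at the floor in pRb-deficient cultures) lie lowest.

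Genes that retinoic acid is known to induce in other cells were listed as a readout of signaling, again with earlier results known. Of 24 genes 19 were measured and 17 tested, of which 3 passed as higher and 7 as lower in pRb-deficient cultures, and 7 did not pass, beside the same 18.5% higher and 23.4% lower of all genes. Their median log2 fold change was -0.19. They did not move one way.

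Tgm2, a transglutaminase, had signals of 1266.6, 1520.0 and 1188.3 in pRb-deficient cultures, against 385.0, 380.9 and 443.0 in pRb-expressing cultures. It rose by 1.71 on the log2 scale (limma adjusted p = 7.54e-05), with no overlap. Gprc5a, an orphan G protein-coupled receptor first known for its induction by retinoic acid, had 699.0, 809.3 and 988.7 in pRb-deficient and 447.0, 334.8 and 409.1 in pRb-expressing cultures (log2 fold change 1.06, limma adjusted p = 0.00234). Ret, a receptor tyrosine kinase, had a log2 fold change of 0.89 (limma adjusted p = 0.0202), and on this probe set passed in only 2 of the 6 fits that left out an array. Its other probe set rose by 2.74, and the mean of both by 1.82 (limma adjusted p = 0.00247).

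Among the genes that fell were relatives of Gprc5a, homeobox genes and Rarres2. Gprc5c had signals of 17.2, 14.9 and 6.2 in pRb-deficient cultures, against 584.0, 628.8 and 692.6 in pRb-expressing cultures. All pRb-deficient arrays were below the floor, and the signal was at least 19.8-fold lower (limma adjusted p = 7.62e-06). Its other probe set fell by 1.64 on the log2 scale. A further family member, Gprc5b, had a log2 fold change of -1.13 (limma adjusted p = 0.00291), or -0.81 beyond the median of chromosome 7. Its other probe set, at -0.63, did not pass. On their brightest probe sets, Gprc5a and these relatives thus moved in opposite directions. Meis2, a homeobox gene that retinoic acid induces in the mouse limb, had signals of 222.3, 181.0 and 199.1 in pRb-deficient cultures, against 1765.3, 1497.7 and 2003.1 in pRb-expressing cultures. Its log2 fold change was -3.12 (standard error 0.14, limma adjusted p = 1.26e-05), and each of its 3 other probe sets was lower too (-3.06 to -1.22). Meis1 had a log2 fold change of -1.50 on its brightest probe set (limma adjusted p = 0.000909), but its 2 other probe sets, at -0.23 and -0.07, did not pass, and the mean of all 3 was -0.60.

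Rarres2, which encodes the secreted protein chemerin, had signals of 10.4, 4.7 and 6.5 in pRb-deficient cultures, against 313.1, 272.8 and 315.8 in pRb-expressing cultures. It was thus below the floor in all pRb-deficient cultures and at least 9.37-fold lower there (limma adjusted p = 2.66e-05) on its brightest probe set. Of its 2 other probe sets 1 was lower (-2.72) and 1 did not pass (0.28), and the mean of all 3 was -1.89. Bhlhe40, a transcriptional repressor, had a log2 fold change of -0.83 (limma adjusted p = 0.000209), of which -0.25 remained beyond the median of chromosome 6.

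**Figure D5:**
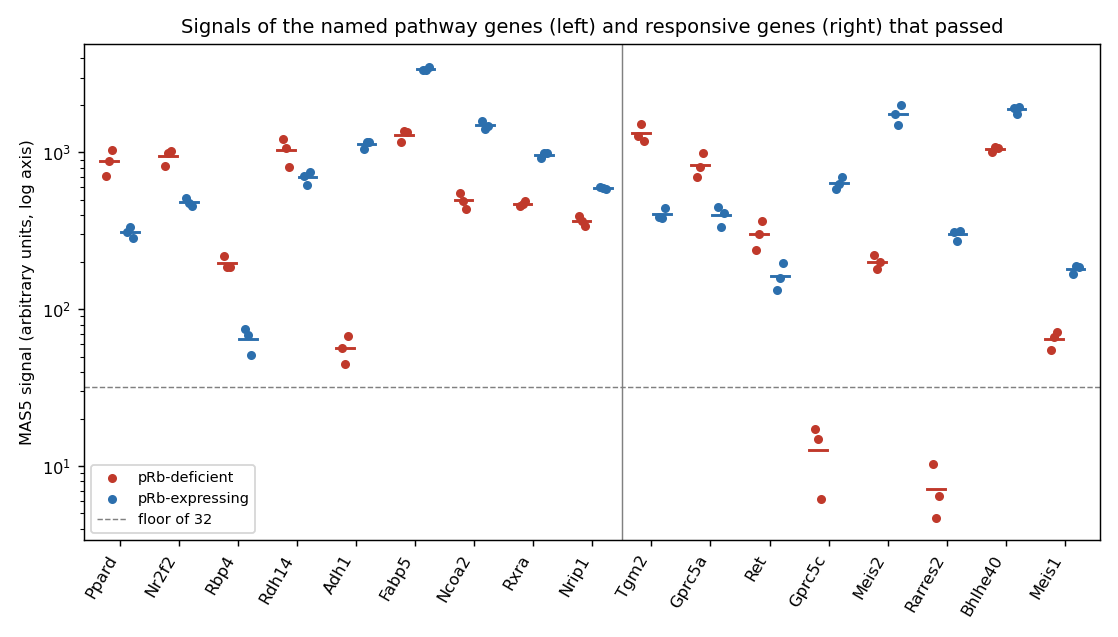
MAS5 signal (log axis) in each culture of the named pathway genes (left of the vertical line) and responsive genes (right) that passed, with pRb-deficient points left of pRb-expressing points. Bars are group means, and a dashed line marks the floor (32). Gprc5c and Rarres2 lie below the floor in all pRb-deficient cultures, and no gene shown has overlapping groups.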

How the data were processed

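Gene expression was measured on 1 Affymetrix mouse array per culture, in 3 pRb-deficient and 3 pRb-expressing cultures. The deposited values are linear MAS5 intensities, which the authors had scaled to a common trimmed mean (checked here as 500.0 on every array). Affymetrix Expression Console 1.1 and MAS5 are the tools named in the submitters' processing notes. Median signals were 108.0 to 119.9, and 24.4% to 26.6% of probe sets lay at or below 32. The number of arrays limits the precision.

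From 45101 probe sets, 64 controls and 6610 at or below 32 on all arrays were left out. For the remaining 38427, log2 of the signal or of 32, whichever was higher, entered limma 3.58.1 (R 4.3.3, intensity trend, group as the only term, 4 residual degrees of freedom), with two-sided p-values adjusted over all of them by the method of Benjamini and Hochberg at 0.05. Fold changes are on this floored scale, and "at least" marks a group with all arrays at the floor. Of the probe sets, 34945 carried a single symbol in the array's annotation, 932 several and 9160 none. In lists, each gene was read from its brightest probe set by mean signal.

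Members and lists were chosen with earlier results of these data known. The rule named all members, up to 5 genes per direction and list with the lowest adjusted p, 6 pathway genes by name, and the 3 genes most like Crabp1 and the 3 most like Cyp26b1. Other genes (Adh4, Adh5, Adh7, Rdh13, Aldh8a1, Nr2f1, Gprc5b and the stress and marker genes) were named after their values were seen. Some listed genes are not reported here. Replicate numbers were not taken as pairs, since deviations of same-numbered arrays correlated at 0.0229, -0.0338 and 0.0570. On simulated arrays with 38427 probe sets the fit recovered 59 of 100 made to change 2-fold and 85 of 100 made to change 4-fold, with 4 false calls. The changed probe sets were drawn from those above a signal of 100 in pRb-expressing cultures, with independent noise and no change in the rest. These rates therefore do not hold for dimmer genes or for a comparison in which many more probe sets pass. Alternatives were other floors, a pseudocount of 32, a minimum mean of 100, quantile normalization, median centring, no intensity trend, a replicate block, removal of chromosome medians, the mean of all probe sets of a gene, and leaving out each array.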

Additional observations from a re-analysis of the deposited data

How the results depend on the processing

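The counts of members and listed genes called stayed within 1.5 times their values under every alternative. With the replicate number as a block, 10 member probe sets, 14 other pathway genes and 10 responsive genes passed, against 10, 15 and 10 without the block. Of the 40 single results examined, Rdh13 lost its call under the block (-0.46) and no other did. On leaving out each array, 9 to 10 members, 12 to 15 pathway genes and 9 to 10 responsive genes passed.

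Of these 40, 28 kept their direction and side of the threshold in all settings. Aldh1a1 lost its call with a floor of 100 and in 5 of the 6 fits that left out an array (all but without pRb-expressing replicate 2), with log2 fold changes of -1.75 to -1.10 over all 6. The brighter Rarg probe set lost its call with chromosome medians removed (0.02), and so did Rdh14 (0.25), which also lost it with no intensity trend and with the mean of its probe sets. Ret lost its call in 4 of the 6 fits that left out an array. Rdh13 further lost its call with chromosome medians removed, quantile normalization or median centring (-0.15, -0.42 and -0.41). The second Aldh1a3 probe set passed with median centring (-0.84) and without pRb-deficient replicate 1 (-1.11).

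Values that did not pass changed sign in some settings. With chromosome medians removed, the dim Aldh1a3 probe set was at 0.23, Dhrs3 at -0.03 and Rxrb at 0.04. Cyp26a1 was at 0.74 with no floor above 1 and at 0.22 with a pseudocount of 32. Adh5 was at 0.04 with median centring and 0.02 for the mean of its probe sets, and Aldh8a1 at 0.01 with a floor of 100, 0.05 with quantile normalization and 0.04 with median centring. Over the fits that left out an array, Dhrs3 ranged over -0.32 to 0.43 (including -0.11), Cyp26a1 over -0.35 to 0.32 (including 0.04), Rxrb over -0.36 to 0.08, Adh5 over -0.08 to 0.06 and Aldh8a1 over -0.19 to 0.26 (including 0.01). The cause was not tested. Signals near 32 limit Aldh1a1, the dimmer Aldh1a3 probe sets, Rara and Cyp26a1.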

Other observations

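The genes whose pattern over the 6 arrays was closest to that of Crabp1 were Dkk2, a secreted modulator of Wnt signaling, Ccbe1, a secreted protein of lymphatic vessel growth, and Cnn1, a smooth muscle calponin. Closeness was the root mean square difference of log2 signals after removal of each gene's mean, over 16299 genes, and it was 0.16, 0.17 and 0.18. Dkk2 had signals of 3114.5, 4537.0 and 3385.4 in pRb-deficient cultures, against 7.8, 9.2 and 9.4 in pRb-expressing cultures. Like Crabp1, all 3 genes were below the floor on every pRb-expressing array.

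The genes closest to Cyp26b1 were Lefty1, an inhibitor of Nodal signaling, Abcb6, a transporter linked to heme synthesis, and Sgsm2, a regulator of small GTPases, at 0.37, 0.38 and 0.40. Sgsm2 had signals of 55.2, 226.7 and 141.7 in pRb-deficient cultures, against 503.0, 466.2 and 399.6 in pRb-expressing cultures. As with Cyp26b1, pRb-deficient replicate 2 was the highest of its group for all 3. These points share their arrays, and the genes were picked from many for their likeness, so no test is given.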
